A study of Homo sapiens with 8 samples.

Results

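MHC class I molecules carry peptides made from a cell's own proteins to the cell surface, and the genes described here encode the machinery that makes and loads those peptides. The list holds 10 genes: B2M, TAP1, TAP2, TAPBP, PSMB8, PSMB9, PSMB10, ERAP1, ERAP2 and NLRC5. A gene was measured where a row of the deposited value table was annotated with that gene symbol alone, which gave 9 genes with 1 row each, out of 18495 rows in all. PSMB9 had only a row shared with PSMB8-AS1 and is given no value, and a further row shared by TAP2 and HLA-DOB was not used.

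The cells were PNT2, an established immortalized line of human prostatic epithelium. The siESRP samples received small interfering RNA against both ESRP1 and ESRP2, a pair of epithelial RNA-binding proteins that control splicing, and the siGFP samples received small interfering RNA against green fluorescent protein, a jellyfish protein that human cells lack. Each group had 4 samples with 1 Affymetrix human exon array each. The values are gene-level intensities and do not measure splicing.

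The proteasome cuts proteins into peptides, and cells exposed to interferon exchange its catalytic subunits for the inducible ones encoded by PSMB8, PSMB9 and PSMB10. TAP1 and TAP2 form the transporter that brings peptides into the endoplasmic reticulum, where the aminopeptidases ERAP1 and ERAP2 trim them and tapasin, the product of TAPBP, helps load them onto a heavy chain paired with beta-2-microglobulin, the product of B2M. NLRC5 is the transactivator that drives many of these genes, and interferons induce most of the set in epithelial cells as in others.

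Array medians of the deposited intensity ran from 247 to 269 in siESRP and from 233 to 286 in siGFP, and the arrays were quantile normalized before use. ESRP1 itself averaged 582 ± 66.9 in siESRP and 2439 ± 169 in siGFP (SD, n = 4 each), a reduction of 76.2%. No value is given for ESRP2, so its reduction was not checked here. Of 9 epithelial markers 7 were measured, with mean intensities from 2656 to 6964 in siESRP and from 1620 to 6690 in siGFP. Of these 7, 5 rose (KRT18, KRT19, CDH1, CDH3 and ITGA6), beside 10.9% of all rows, and KRT8 and EPCAM did not pass. KRT18 lost its call with the arrays as deposited (limma adjusted p = 0.107), and CDH1 kept its call under the alternatives described below. KRT19, CDH3 and ITGA6 were not followed under those alternatives. CDH3, a cadherin of basal epithelium, averaged 2656 ± 161 in siESRP and 1620.0 ± 219 in siGFP (SD, n = 4 each). Of 10 leukocyte markers 8 were measured, and their summed intensity per array ran from 995 to 1201 in siESRP and from 932 to 1014 in siGFP. The dimmest, PTPRC, CD3E and LCP1, lay near background, with means of 12.8, 12.9 and 19.8 in siESRP and of 10.7, 6.97 and 23.5 in siGFP. CD48 averaged 25.8 in siESRP and 32.1 in siGFP, and CD14 averaged 112 and 102. LAPTM5 averaged 59.2 in siESRP and 78.6 in siGFP, and its groups did not overlap (limma adjusted p = 0.077). Most of the sum came from CD68, a lysosomal protein that many cell types make. CD68 rose (means of 747 in siESRP and 551 in siGFP) and the receptor gene CSF1R fell (80.9 in siESRP and 154 in siGFP), while the other 6 did not pass; CD68 lost its call with the replicate number as a block (limma adjusted p = 0.0522). Of 8 class II markers 7 were measured and none passed the test, with summed intensities from 860 to 935 in siESRP and from 743 to 903 in siGFP; most of the sum came from CD74, the invariant chain, which averaged 673 ± 28.9 in siESRP and 561 ± 79.9 in siGFP (SD, n = 4 each; limma adjusted p = 0.118). HLA-DPA1 averaged 82.9 in siESRP and 94.3 in siGFP, and its groups did not overlap (limma adjusted p = 0.0502). CD80 averaged 15.8 in siESRP and 22.5 in siGFP (limma adjusted p = 0.052). HLA-DRA averaged 32.1 in siESRP and 33.2 in siGFP, HLA-DMB 58.1 and 62.7, and HLA-DOA 47.5 and 44.9. CD86 was near 0 in both groups. The part of these markers in the results below was not tested. Nothing in the labels tells separate cultures from repeat arrays of one, so the p-values reflect the scatter among these 8 samples and that scatter may be technical.

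Among the antigen processing genes, 3 passed the test. ERAP1 and ERAP2, the 2 peptide-trimming enzymes, were higher in siESRP, and NLRC5, the transactivator, was lower. The transporter, tapasin, beta-2-microglobulin and both measured proteasome subunits did not pass. By limma, with p-values adjusted across the 18495 rows by the Benjamini-Hochberg method and called under 0.05, 2 of 9 genes rose and 1 fell, while over all rows 10.9% rose and 9.31% fell, 20.2% in all. With only 9 genes, nothing particular to the list is read from these counts. The same 3 genes were those whose groups did not overlap, which held for 24.7% of all rows. The median log2 difference of the 9 genes was 0.02, against −0.02 over all rows. In bulk samples fewer cells expressing a gene and less RNA per cell cannot be told apart.

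**Figure D1:**
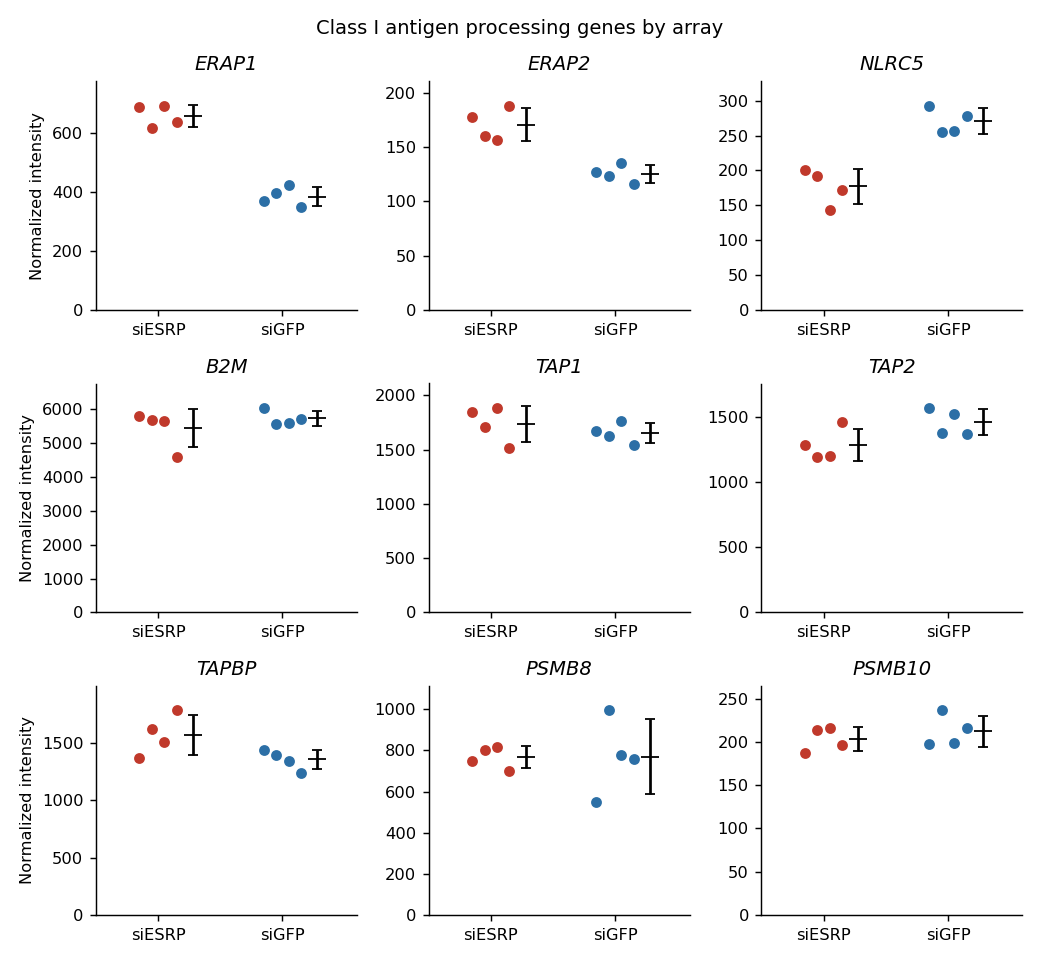
Quantile-normalized intensity (vertical axes, linear, from 0, one scale per gene) of the 9 measured genes on the 4 siESRP and 4 siGFP arrays. Points are arrays in replicate order, and the bar beside each group is the mean with its SD. The groups are apart in ERAP1, ERAP2 and NLRC5 and overlap in the other 6 genes.

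ERAP1 encodes the aminopeptidase of the endoplasmic reticulum that trims precursor peptides to the length class I molecules hold. Its intensity on the siESRP arrays was 689, 619, 695 and 639.9, and on the siGFP arrays it was 369, 397, 425 and 350.4. Every siESRP array was above every siGFP array, and the lowest siESRP array, at 619, stood clear of the highest siGFP array, at 425. The means were 661 ± 37.4 in siESRP and 385 ± 32.7 in siGFP (SD, n = 4 each), a 1.71-fold rise (log2 difference 0.78 ± 0.07 SE, limma adjusted p = 0.000715). Fold changes here are on the log2(value + 1) scale.

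ERAP2 encodes a related aminopeptidase with other residue preferences that can pair with ERAP1. It had intensities of 178, 160.3, 156 and 188 in siESRP, against 127, 123, 135 and 116 in siGFP. The groups did not overlap, although the gap was narrower than that of ERAP1. The means were 171 ± 15.0 in siESRP and 125 ± 8.01 in siGFP (SD, n = 4 each), a 1.36-fold rise (log2 difference 0.44 ± 0.08 SE, limma adjusted p = 0.00822). With the arrays taken as deposited, the log2 difference of ERAP2 was 0.40 and the call ended (limma adjusted p = 0.0545).

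NLRC5 encodes the class I transactivator, a member of the NOD-like receptor family. Its intensities were 200.4, 192, 144 and 172 in siESRP, and 293, 255, 256 and 278 in siGFP. All siESRP arrays were below all siGFP arrays, with siESRP replicate 3 the lowest. The means were 177 ± 25.2 in siESRP and 271 ± 18.3 in siGFP (SD, n = 4 each), so NLRC5 was 1.54-fold lower (log2 difference −0.62 ± 0.11 SE, limma adjusted p = 0.00906).

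Promoter windows of ERAP1 and ERAP2, which passed, are shown with those of 3 genes that did not, because interferon response elements are the textbook feature of this gene set. RefSeq windows of build GRCh38.p14, from 250 bases before to 50 bases after an annotated start, were at hand for 9 of the 10 genes, with 13 windows in all. NLRC5 had no entry. ERAP1, ERAP2 and TAP1 have 2 windows each, and the one printed is the one that holds the element below. The second windows of ERAP1 and TAP1 and the first window of ERAP2 held 0 matches to any motif searched. Capitals mark matches, on either strand, to the core of the interferon response element, which is GAAA, any 2 bases and GAAA again; on the opposite strand it reads TTTC, any 2 bases and TTTC. The motifs searched were chosen after the expression values were known. The strand, the build and the coordinates of each window stand with its name, and each is written in the direction of transcription.
ERAP1, first window, minus strand, chr5:96807896-96808195: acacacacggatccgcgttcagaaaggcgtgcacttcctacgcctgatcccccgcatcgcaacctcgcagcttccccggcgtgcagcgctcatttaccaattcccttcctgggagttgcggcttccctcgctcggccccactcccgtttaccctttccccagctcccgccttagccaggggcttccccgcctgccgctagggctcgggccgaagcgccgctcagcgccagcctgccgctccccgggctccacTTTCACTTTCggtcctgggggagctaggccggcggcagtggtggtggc
ERAP2, second window, plus strand, chr5:96876250-96876549: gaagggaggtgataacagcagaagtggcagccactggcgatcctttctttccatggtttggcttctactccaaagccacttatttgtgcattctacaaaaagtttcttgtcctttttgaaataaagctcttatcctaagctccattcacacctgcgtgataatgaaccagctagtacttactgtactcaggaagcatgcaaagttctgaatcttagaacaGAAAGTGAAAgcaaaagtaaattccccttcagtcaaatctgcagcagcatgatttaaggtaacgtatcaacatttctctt
B2M, plus strand, chr15:44711267-44711566: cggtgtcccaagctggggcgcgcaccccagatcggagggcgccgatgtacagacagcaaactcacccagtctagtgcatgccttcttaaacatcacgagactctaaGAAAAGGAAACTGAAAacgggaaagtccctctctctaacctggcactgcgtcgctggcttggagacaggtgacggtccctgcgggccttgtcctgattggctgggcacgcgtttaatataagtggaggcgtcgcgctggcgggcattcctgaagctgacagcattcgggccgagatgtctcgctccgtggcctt
TAP1, first window, minus strand, chr6:32853655-32853954: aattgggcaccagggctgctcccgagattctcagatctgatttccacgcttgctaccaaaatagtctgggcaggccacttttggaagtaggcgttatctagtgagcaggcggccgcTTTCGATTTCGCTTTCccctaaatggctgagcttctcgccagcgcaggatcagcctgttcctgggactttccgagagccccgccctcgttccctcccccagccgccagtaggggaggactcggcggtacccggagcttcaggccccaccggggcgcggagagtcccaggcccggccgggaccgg
TAPBP, minus strand, chr6:33314029-33314328: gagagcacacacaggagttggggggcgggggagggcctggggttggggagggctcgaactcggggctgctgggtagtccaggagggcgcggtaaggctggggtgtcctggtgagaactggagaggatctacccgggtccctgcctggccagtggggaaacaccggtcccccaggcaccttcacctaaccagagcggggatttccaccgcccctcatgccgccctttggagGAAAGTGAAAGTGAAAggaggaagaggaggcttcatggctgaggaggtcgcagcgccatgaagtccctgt

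The interferon response element core occurred in 8 of the 13 windows and in at least 1 window of 8 of the 9 genes, PSMB9 being the exception. The PSMB9 window and the first TAP1 window lie on opposite strands and overlap at their far ends. The TAP1 element lies upstream of PSMB9 but outside the PSMB9 window, so the exception depends on the window length. Over all 35116 RefSeq windows of that length, 3.57% held it, and of 27305 genes with a window 4.38% did. In B2M, TAP1 and TAPBP 2 matches overlapped each other, forming a run of 3 repeats; in ERAP1 the match lay from base 3 to base 12 after the start, and in the second ERAP2 window from base −30 to base −21. The element was present both in genes that rose and in genes that did not pass, and NLRC5, which fell, had no window. Whether the element has a part in the differences was not tested. The NF-kappaB consensus occurred in 4 of the 13 windows, those of B2M, TAP1, TAPBP and ERAP1, against 11.3% of all windows. CCAAT, bound by NF-Y, was found in 4 windows (34.6% of all windows), and those of TAP1 and PSMB9 hold the same site. TGACGTCA, the cyclic AMP response element, was found in none (1.85%). All 4 motifs were searched on both strands, no match of one motif overlapped a match of another, and a match is a description of the letters only.

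**Figure D2:**
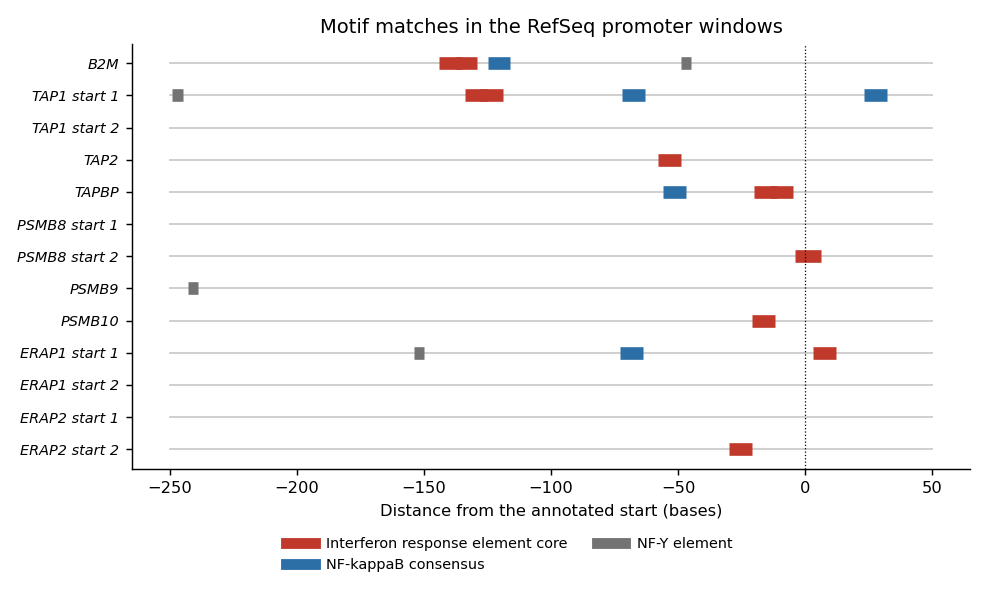
Matches of 3 of the 4 motifs searched (coloured blocks; the cyclic AMP response element had none) in the 13 RefSeq promoter windows, by distance in bases from the annotated start (horizontal axis); one line per window. The interferon response element core lies in 8 windows, in genes that rose and in genes that did not pass.

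The same element was looked up in every measured gene with a window. Of 483 measured genes that held it, 12.0% rose and 10.1% fell, with a median log2 difference of −0.02. Of 10935 measured genes with a window that lacked it, 11.7% rose and 10.1% fell, with a median log2 difference of −0.03. These shares are descriptions, and no difference between them was tested.

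ERAP1 and ERAP2 lie next to each other on chromosome 5, so the genes around them were read as well, a choice made after the values were known. CAST, the calpain inhibitor gene on the other side of ERAP1, averaged 2083 ± 132 in siESRP and 2125 ± 195 in siGFP (SD, n = 4 each; limma adjusted p = 0.873). RIOK2, a ribosome-maturation kinase beyond ERAP2, averaged 741 ± 69.7 in siESRP and 931 ± 110 in siGFP, a log2 difference of −0.33 that did not pass although the groups did not overlap (limma adjusted p = 0.0738). ELL2 (−0.32), GLRX (−0.18) and CHD1 (−0.12) also had log2 differences below 0 without passing, and LIX1 was near background. Of these 6 neighbours none rose, beside 10.9% of all rows, and with so few genes nothing is read from that count. LNPEP, the third aminopeptidase of this cluster, had no row of its own.

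The neighbours of NLRC5 on chromosome 16 did not pass either. HERPUD1, a stress gene of the endoplasmic reticulum, had a log2 difference of 0.04, CPNE2 of −0.01, PSME3IP1 of −0.12, NUP93 of 0.12 and RSPRY1 of 0.13. CETP was near background, with means of 18.7 in siESRP and 19.1 in siGFP. TAP2, PSMB8 and TAP1 lie in a row within the MHC region on chromosome 6; close by, the chromatin reader gene BRD2 averaged 2863 ± 218 in siESRP and 3526 ± 290 in siGFP (SD, n = 4 each) and passed as lower (limma adjusted p = 0.0412). Near TAPBP, WDR46, a gene of ribosome production, also passed as lower (log2 difference −0.26, limma adjusted p = 0.049). SHF, an adaptor protein gene near B2M on chromosome 15, passed as higher, with means of 107 in siESRP and 87.2 in siGFP (limma adjusted p = 0.0426). The other neighbours of B2M did not pass: CTDSPL2, EIF3J, SPG11, TRIM69 and TERB2. Around the chromosome 6 members, HLA-DRA, HLA-DQA2, HLA-DQB2, HLA-DMB, HLA-DOA, PFDN6, RGL2, ZBTB22, DAXX and PHF1 did not pass. Of the PSMB10 neighbours EDC4, NRN1L, CTRL, DPEP3, DPEP2 and DDX28 none passed. Over all rows 20.2% passed, and BRD2, WDR46 and SHF were not followed under the alternatives.

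**Figure D3:**
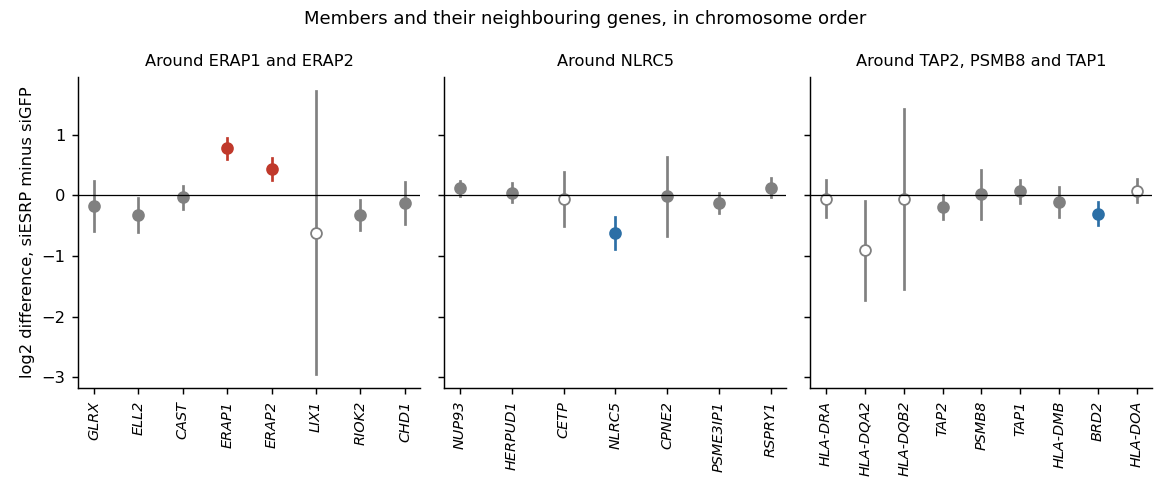
log2 difference of siESRP minus siGFP (vertical axis, limma 95% interval as a line) for members and the nearest genes with a row of their own, in chromosome order. Red is higher and blue lower in siESRP, grey did not pass, and open points have both means under 50. In the left panel ERAP1 and ERAP2 alone are red, and in the middle panel NLRC5 alone is blue.

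B2M, the light chain of every class I molecule, had intensities of 5804, 5689, 5639 and 4588 in siESRP, against 6028, 5548, 5589 and 5715 in siGFP. Of the siESRP arrays 3 lay within the range of the controls, and replicate 4 was below all other arrays. The log2 difference was −0.08, with a 95% interval from −0.28 to 0.12 (limma adjusted p = 0.563). The 95% intervals given here are unadjusted limma intervals.

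The subunits of the peptide transporter had differences of opposite sign, and both missed the threshold. TAP1 measured 1847, 1708, 1882 and 1509.8 in siESRP and 1674, 1623, 1763 and 1546 in siGFP, a log2 difference of 0.07 (95% interval −0.12 to 0.26, limma adjusted p = 0.622). TAP2 measured 1286, 1190.5, 1203 and 1461 in siESRP and 1569, 1381, 1526 and 1369 in siGFP. Of the siESRP arrays 3 were below all controls for TAP2, while replicate 4 was within their range. The log2 difference of TAP2 was −0.19 (95% interval −0.38 to 0.01, limma adjusted p = 0.171).

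TAPBP, the gene of the loading chaperone tapasin, had intensities of 1369, 1622, 1505 and 1782 in siESRP, against 1440, 1398, 1345 and 1240.1 in siGFP. All but replicate 1 of the siESRP arrays were above the controls. The log2 difference of 0.21 (95% interval −0.01 to 0.42) did not pass (limma adjusted p = 0.168). The intervals of TAP2 and TAPBP thus hold differences close to that of ERAP2 in size, and these arrays do not tell such a difference from none.

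The inducible proteasome subunits gave no call. PSMB8, which encodes the inducible chymotrypsin-like subunit, measured 749, 801, 816 and 698 in siESRP and 548, 994, 777 and 759 in siGFP. The spread lay in the controls, whose replicates 1 and 2 were the lowest and highest of all 8 arrays. Its log2 difference was 0.02 with a 95% interval from −0.38 to 0.43 (limma adjusted p = 0.963), the widest interval of the 9 genes. PSMB10, the inducible counterpart of the trypsin-like subunit, measured 187, 214, 217 and 196 in siESRP and 198, 236, 199 and 216 in siGFP. The groups overlapped, with siGFP replicate 2 the highest, and the log2 difference was −0.06 (95% interval −0.24 to 0.13, limma adjusted p = 0.663).

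Inducible subunits take the place of constitutive ones, so each was also set against its counterpart within every array. The within-array log2 ratio of PSMB8 over PSMB5 averaged −0.40 ± 0.20 in siESRP and −0.51 ± 0.48 in siGFP (SD, n = 4 each), a difference of 0.11 (exact two-sided permutation p = 0.83, adjusted p = 0.857 over the 2 pairs). That of PSMB10 over PSMB7 averaged −4.15 ± 0.17 in siESRP and −4.17 ± 0.15 in siGFP (SD, n = 4 each), a difference of 0.02 (exact permutation p = 0.857, adjusted p = 0.857). The smallest p that 4 against 4 arrays allow is 0.0286. These ratios show only whether the balance shifted between the groups, not which subunit was more abundant, and no shift was detectable. PSMB9 and its counterpart PSMB6 had no row of their own, so the third pair was not analysed here.

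**Figure D4:**
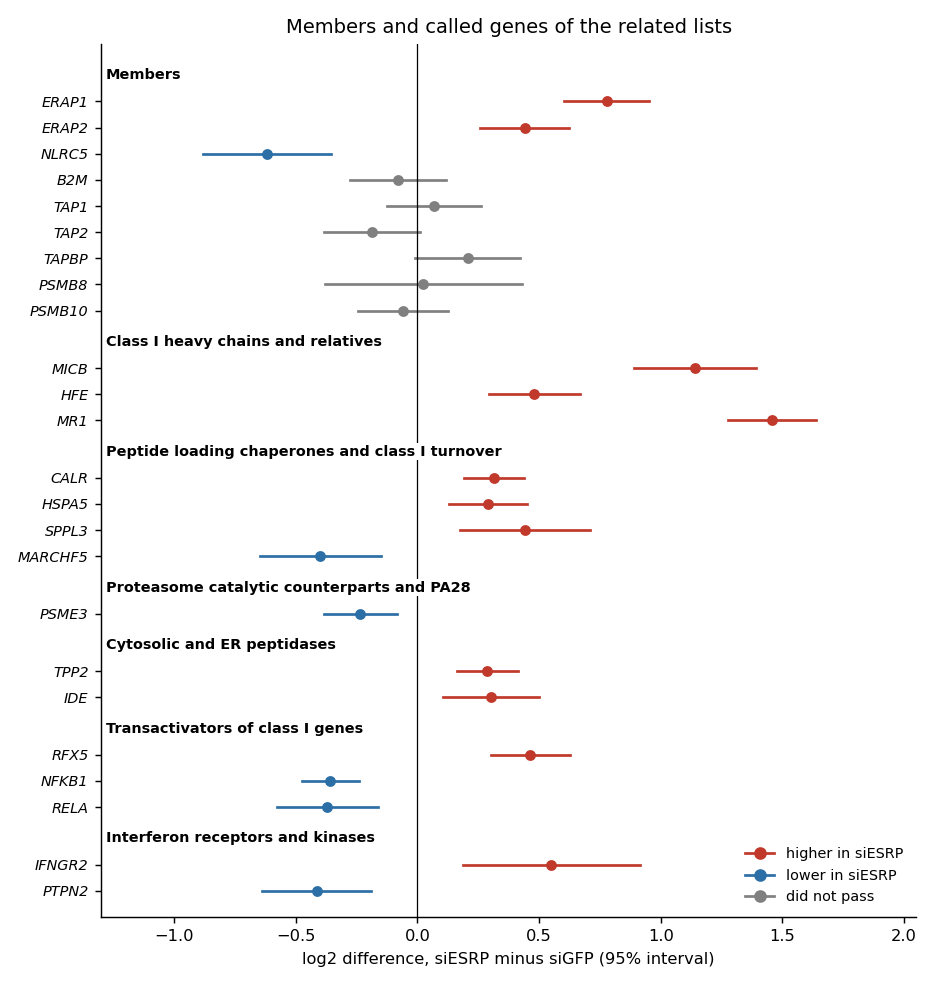
log2 difference of siESRP minus siGFP (horizontal axis) with the limma 95% interval for the 9 members and for the 15 genes of the 6 related lists that passed the test. Red is higher and blue lower in siESRP, and grey did not pass. MR1 and MICB lie farthest to the right, beyond ERAP1.

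Genes around the class I pathway were read from 6 lists holding 66 genes, of which 52 had a row of their own. Of these 52, 10 rose, 5 fell and 37 did not pass, beside the 10.9% and 9.31% of all rows, and their median log2 difference was 0.05. Each list is small, so nothing particular to it is read from its own counts below. The calls of 7 of the 15 held without each of the 8 arrays in turn, and these were MICB, MR1, HFE, CALR, TPP2, RFX5 and NFKB1. The other 8, HSPA5, SPPL3, MARCHF5, PSME3, IDE, RELA, IFNGR2 and PTPN2, lost the call in 4 to 7 of the 8 fits without 1 array. With the arrays as deposited 5 of the 15 passed, namely MICB, MR1, MARCHF5, IFNGR2 and PTPN2.

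Among heavy chains and their relatives MR1, MICB and HFE rose, while HLA-E, HLA-F and CD1D did not pass. Of 11 listed genes 6 were measured, with a median log2 difference of 0.20. Of the 6, 3 were higher and 0 lower, beside 10.9% and 9.31% of all rows. MR1, which presents vitamin metabolites to mucosal T cells, had intensities of 882, 816, 911 and 817 in siESRP, against 309, 314, 347 and 278 in siGFP. No siESRP array came near the controls, and MR1 rose 2.74-fold (log2 difference 1.46 ± 0.08 SE, limma adjusted p = 9.9e-05). MICB, a stress ligand of the NK-cell receptor NKG2D, measured 1516, 1656, 1815 and 1766 in siESRP and 699.6, 927, 738 and 711 in siGFP, a 2.20-fold rise (log2 difference 1.14 ± 0.11 SE, limma adjusted p = 0.000666). MICB shares most of its sequence with MICA, which had no row of its own, so its value is uncertain. HFE, the iron-regulating relative that binds beta-2-microglobulin, averaged 597 ± 52.9 in siESRP and 427 ± 29.9 in siGFP (SD, n = 4 each), a 1.40-fold rise (limma adjusted p = 0.00634).

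HLA-E, which presents leader peptides to NK-cell receptors, averaged 2054 ± 137 in siESRP and 2194 ± 124 in siGFP (SD, n = 4 each; limma adjusted p = 0.37). HLA-F averaged 3313 ± 50.3 in siESRP and 3491 ± 234 in siGFP (SD, n = 4 each; limma adjusted p = 0.425). Both resemble other class I genes closely, so their probes may read more than 1 gene. CD1D, the lipid-presenting relative, did not pass (log2 difference −0.24, limma adjusted p = 0.568), and its siESRP replicate 3, at 745, lay far above the other 3 siESRP arrays; without that array CD1D passed as lower (log2 difference −0.49, limma adjusted p = 0.0362).

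In the list of loading chaperones and class I turnover, 12 of 13 genes were measured. Of the 12, 3 rose, 1 fell and 8 did not pass, beside 10.9% of all rows higher and 9.31% lower. CALR, calreticulin of the peptide loading complex, averaged 4074 ± 108 in siESRP and 3277 ± 191 in siGFP (SD, n = 4 each), a 1.24-fold rise (limma adjusted p = 0.00654). HSPA5, the general chaperone BiP, rose 1.22-fold (limma adjusted p = 0.0246), and SPPL3, a Golgi protease that trims glycosyltransferases, rose 1.36-fold (limma adjusted p = 0.034). The gene that fell was MARCHF5, a ubiquitin ligase of mitochondria, 1.32-fold lower (limma adjusted p = 0.037). P4HB, a protein disulfide isomerase, counts as not passed by its brighter row (limma adjusted p = 0.121), while its second row passed as higher (log2 difference 0.18, limma adjusted p = 0.0474). The loading-complex partners PDIA3 and CANX had log2 differences of 0.06 and −0.09 and did not pass.

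Of 7 measured proteasome counterpart and activator genes, PSME3 alone passed, beside 20.2% of all rows. It was 1.18-fold lower (limma adjusted p = 0.0405). PSME3 encodes the nuclear activator, whereas the interferon-inducible activator subunits PSME1 and PSME2 had log2 differences of 0.05 and 0.17 and did not pass. The constitutive catalytic subunits PSMB5 and PSMB7 had log2 differences of −0.09 and −0.08. Of 7 measured peptidases outside the ERAP family 2 rose, beside 10.9% of all rows. TPP2, a giant cytosolic peptidase, rose 1.22-fold (limma adjusted p = 0.0102). IDE, which degrades insulin and other short peptides, rose 1.23-fold (limma adjusted p = 0.0438). LAP3 and THOP1, a cytosolic aminopeptidase and an oligopeptidase, did not pass, with log2 differences of −0.03 and 0.04. TPP2, like ERAP1, trims peptides, and its siESRP intensities of 1627, 1722, 1511 and 1528 were all above the siGFP intensities of 1280.5, 1327, 1278 and 1347. Unlike ERAP1, TPP2 lost its call as deposited (limma adjusted p = 0.174) and with median scaling (limma adjusted p = 0.0809). It also lost it with the replicate number as a block (limma adjusted p = 0.0514).

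Of 15 listed transcription factors that act on class I promoters, 10 were measured. Among the 10, 1 rose, 2 fell and 7 did not pass, beside 10.9% of all rows higher and 9.31% lower. RFX5, which binds the X box through which NLRC5 is recruited, had intensities of 1186, 1075, 1152 and 1276 in siESRP, against 816, 836, 928 and 819 in siGFP. The groups did not overlap, and RFX5 rose 1.38-fold (log2 difference 0.46 ± 0.07 SE, limma adjusted p = 0.00423), in the direction opposite to NLRC5. NFKB1, a subunit of NF-kappaB, averaged 833 ± 23.8 in siESRP and 1068 ± 56.4 in siGFP (SD, n = 4 each), 1.28-fold lower (limma adjusted p = 0.00321), and RELA was 1.29-fold lower (limma adjusted p = 0.0255). IRF1, the interferon-induced activator of class I genes, had means of 893 in siESRP and 925 in siGFP (limma adjusted p = 0.659). IRF2 had a log2 difference of 0.26 that did not pass (limma adjusted p = 0.0847). With array weights IRF2 passed as higher (limma adjusted p = 0.0471). IRF9, of the type I interferon complex, had a log2 difference of −0.34 that did not pass (limma adjusted p = 0.0684); it passed without siESRP replicate 2 (adjusted p = 0.0367), and on all 8 arrays without the dimmest rows (0.0437) and with trended, robust variances (0.0309). CIITA, the class II relative of NLRC5, had low means of 62.9 in siESRP and 75.0 in siGFP and did not pass (limma adjusted p = 0.104), though it did without siESRP replicate 3 (adjusted p = 0.0425) and with array weights (adjusted p = 0.0477).

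All 10 listed interferon receptors, kinases and their inhibitors were measured. Among them 1 rose, 1 fell and 8 did not pass, beside 10.9% of all rows higher and 9.31% lower. IFNGR2, a chain of the interferon-gamma receptor, had intensities of 2090.5, 2252, 2456 and 2125 in siESRP and 1205, 1919, 1345 and 1715 in siGFP, a 1.46-fold rise (limma adjusted p = 0.045). IFNGR1, the other chain of that receptor, had a log2 difference of −0.18 that did not pass (limma adjusted p = 0.268). PTPN2, a phosphatase that restrains JAK and STAT signalling, was 1.33-fold lower (limma adjusted p = 0.0223). IFNAR1, a chain of the type I interferon receptor, had a log2 difference of 0.56 that did not pass (limma adjusted p = 0.0588); it passed without siESRP replicate 3 (log2 difference 0.69, adjusted p = 0.02), and on all 8 arrays without the dimmest rows (adjusted p = 0.0252), with trended, robust variances (0.0215) and with array weights (0.02). JAK1, JAK2 and TYK2 had log2 differences of 0.02, 0.05 and 0.11, and none of these kinases passed. IFNAR2, SOCS1 and SOCS3 did not pass either, with log2 differences of 0.38, −0.27 and −0.06.

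**Figure D5:**
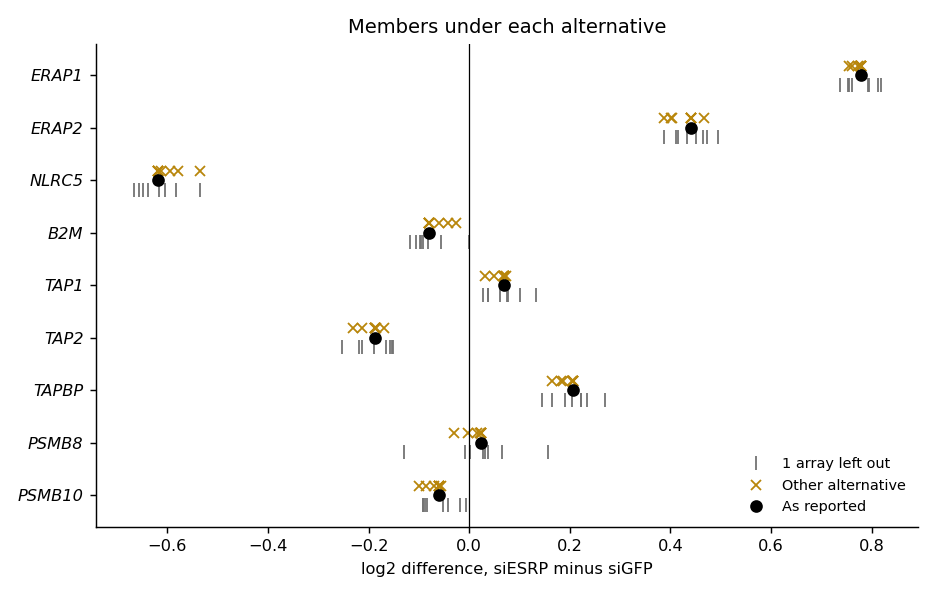
log2 difference of siESRP minus siGFP (horizontal axis) of the 9 members as reported (black), under the other processing alternatives (crosses) and with 1 array left out (ticks). ERAP1 and ERAP2 stay above 0 and NLRC5 stays below 0 throughout, while PSMB8 crosses 0.

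ERAP1 stayed higher and NLRC5 lower, both past the threshold, under every alternative run. Over the 8 fits without 1 array, the log2 difference of ERAP1 ran from 0.74 to 0.82, that of ERAP2 from 0.39 to 0.50 and that of NLRC5 from −0.67 to −0.53, with adjusted p of at most 0.00407, 0.029 and 0.0297 by limma. Across the table as a whole the median shift in log2 was −0.02 with quantile normalization, −0.10 without normalization and −0.11 with median scaling. Against those shifts ERAP1 and ERAP2 kept their positive and NLRC5 its negative difference on each scale.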

How the data were processed

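Per the labels' protocols, ribosomal RNA was removed from total RNA, and biotin-labelled sense DNA was hybridized to exon arrays. The authors deposited linear intensity values in whole numbers, 18495 rows on 8 arrays; for their background correction, probe summary and scaling, the sources used here give no account. Between 2.70% and 4.02% of rows per array lay below 0. The number of arrays limits the precision.

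Quantile normalization was applied to the linear values, negative results were raised to 0, and log2(value + 1) was fitted with limma 3.58.1 (R 4.3.3; lmFit and eBayes, 2 groups, no covariate, two-sided, Benjamini-Hochberg across the table, threshold 0.05). The steps were tested on simulated data. Means ± SD are normalized intensities. Of the rows, 14579 had 1 gene symbol in GEO's platform annotation, 2847 several and 1069 none; the brightest row stood for each of 14272 genes. Members and lists were chosen with earlier results of these data known. The members, ESRP1 and all called genes of the related lists were to be named; further genes, neighbours and motifs were chosen after values were seen. The planned PSMB9 over PSMB6 ratio could not be made.

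Alternatives were no normalization or median scaling, dropping the 25% of rows with the lowest means, adding 16 before the log, trended and robust variances, weights per array, a block for the replicate number, a threshold of 0.01, averaging a gene's rows, and leaving out each array.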

Additional observations from a re-analysis of the deposited data

Results flagged for a closer look

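Dixon's test at the 95% level was applied to the 4 values of a gene in a group, over 50 such groups of 25 genes, and singled out an array in 3 of them; chance alone would do so in about 1 in 20, or 2.5. The ratio given is the gap to the nearest array over the whole range, both on the log2(value + 1) scale, and the intensities are linear. B2M was low on siESRP replicate 4 (ratio 0.877), at 4588. PSME3, the proteasome activator gene, was low on siESRP replicate 3 (ratio 0.85), at 2406. RELA was low on siGFP replicate 3 (ratio 0.859), at 1396. The 3 arrays are different ones.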

How the results depend on the processing

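ERAP1 and NLRC5 kept direction and call under every alternative run, and ERAP2 kept its direction. The 3729 rows called became 1673 as deposited, 2292 with the replicate number as a block and 1808 at adjusted p under 0.01, and ran from 2719 to 3793 with 1 array left out. Without 1 array, 2 members rose and 1 fell in each fit, and among related genes 6 to 9 rose and 1 to 5 fell. As deposited, 1 member rose, ERAP2 having a log2 difference of 0.40 (adjusted p = 0.0545), and 3 related genes rose and 2 fell. With median scaling, 7 related genes rose and 4 fell. At adjusted p under 0.01, 5 related genes rose and 1 fell. With the replicate block 1 member rose, ERAP2 having 0.44 (adjusted p = 0.0632), and 4 related genes rose and 1 fell. The replicate numbers were not shown to pair the arrays. Deviations of same-numbered arrays from their group means correlated at 0.15, 0.09, −0.27 and −0.02. No siESRP array correlated best with the siGFP array of its own number. Values near 0 crossed it without a call. PSMB8 had −0.0016 with median scaling, −0.0309 with array weights and −0.13 to 0.16 without 1 array. The PSMB10 over PSMB7 difference was −0.0221 as deposited and −0.022 with median scaling and ran from −0.0448 to 0.0947 without 1 array, and that of PSMB8 over PSMB5 from −0.12 to 0.26. The causes were not tested. The precision is limited by 4 arrays a group, and levels near background cannot be told from it.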
